A study of Mus musculus with 2 samples.

Results

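The clustered histone genes were the 67 genes, of 32285 in the feature table, whose symbols begin with Hist1h, Hist2h, Hist3h or Hist4h. They were 6 genes of the linker histone H1, 18 of H2A, 18 of H2B, 12 of H3 and 13 of H4. In the mm10 annotation 54 lie on chromosome 13, 10 on chromosome 3, 2 on chromosome 11 and 1 on chromosome 6, and 62 have a single exon. They were read in 2 single-cell libraries of CD8 T cells from mesenteric lymph nodes, cultured with cytokines and antibodies that drive interleukin-17 production (Tc17 cells) and stimulated for 3 h with PMA at 100 ng/ml and ionomycin at 10 μg/ml. One library came from wild-type mice of strain C57/B6N. The other came from mice in which NFATc1, a calcium-regulated transcription factor, was to be removed from T cells. It was to be deleted by Cd4-Cre acting on floxed Nfatc1 (Nfatc1f/f), from T cell development on and not only in CD4 T cells. The number and age of the mice behind each library were not found in the labels. With 1 library per group no difference has a replicate check and no p-value was computed.

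Histone proteins package DNA. Pairs of H2A, H2B, H3 and H4 form the nucleosome core, and H1 binds the DNA between cores. The clustered genes are known as replication-dependent: most of their mRNA is made while DNA is copied in S phase, and it ends in a conserved stem-loop in place of a poly(A) tail. Stem-loop binding protein holds that end, and the mRNA is broken down when S phase stops. The 3′ assay used here primes on poly(A), so it can count histone mRNA only where a transcript carries a poly(A) tail or an internal run of adenines, and its counts do not measure the total amount of histone mRNA.

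The transcript ends are shown because they set what this assay can read. In the GENCODE M21 transcripts, 44 of the 67 genes hold the histone stem-loop consensus, searched on the transcript strand, against 28 of 21834 other protein-coding genes (0.128%). By type these were 4 of 6 H1, 11 of 18 H2A, 10 of 18 H2B, 8 of 12 H3 and 11 of 13 H4 genes. It took 6 forms: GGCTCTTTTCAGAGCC in 26 genes, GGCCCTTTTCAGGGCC in 7, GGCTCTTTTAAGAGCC in 6, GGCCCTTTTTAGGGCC in 2, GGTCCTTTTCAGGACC in 2 and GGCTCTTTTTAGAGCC in 1. In 22 genes the annotated transcript went on for over 100 bases past the stem-loop, and in 16 an AATAAA or ATTAAA, the signals for adding poly(A), stood after it. The annotated ends of the other 23 genes do not hold the motif. This does not show that their mRNA lacks it, since an annotated end can stop short of it. Below, the stem-loop is in capitals and the bases around it in lower case, 5′ to 3′ on the transcript strand. The first 4 genes go on well past the stem-loop, Hist1h1e by 1153 bases, and the last one stops 3 bases after it but holds a run of 12 adenines just before it.
Hist1h4d (chr13:23581598-23582735, plus strand): aaaaaccaaaGGCCCTTTTCAGGGCCacta
Hist1h1c (chr13:23738808-23740367, plus strand): caatccaaaaGGCTCTTTTCAGAGCCacca
Hist1h3e (chr13:23561534-23562369, minus strand): aaaccaaaacGGCTCTTTTAAGAGCCacct
Hist1h1e (chr13:23620629-23622558, minus strand): acaacccaaaGGCTCTTTTCAGAGCCaccc
Hist1h2ap (chr13:21833026-21833507, minus strand): aaaaaaaaaaGGCTCTTTTCAGAGCCatc

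Promoters of 62 of the 67 genes were in the RefSeq table (GRCm38.p6, 250 bases before to 50 after the start). The CCAAT box, searched on both strands, was in 53 of 62 (85.5%) against 37.8% of 26963 other promoters. It was in every matched H1, H2A, H2B and H3 promoter but in only 3 of 12 H4 promoters. The octamer ATTTGCAT was in 7 of 18 H2A and 6 of 16 H2B promoters (1.71% of other promoters) and in no H1, H3 or H4 promoter. The H1 box AAACACA was in 5 of 6 H1 promoters (7.12% of others), and the TATA box TATAAA in 35 of 62 (14.1% of others). A match describes letters only. The 3 promoters below, of an H4, an H1 and an H2A gene, have these motifs in capitals on either strand. They are single examples and do not stand for their types. Hist1h4d is one of the 3 H4 genes with a CCAAT box, and Hist1h1c has no TATAAA. Hist1h2ab holds an octamer and also the H1 box, which was in only 2 of 18 H2A promoters.
Hist1h4d promoter (chr13:23581318-23581617, plus strand): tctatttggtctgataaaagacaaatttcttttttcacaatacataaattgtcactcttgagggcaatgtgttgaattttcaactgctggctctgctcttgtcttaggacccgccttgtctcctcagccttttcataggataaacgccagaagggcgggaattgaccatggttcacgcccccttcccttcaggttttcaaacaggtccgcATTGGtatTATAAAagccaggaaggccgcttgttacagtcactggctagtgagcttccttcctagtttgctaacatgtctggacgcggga
Hist1h1c promoter (chr13:23738557-23738856, plus strand): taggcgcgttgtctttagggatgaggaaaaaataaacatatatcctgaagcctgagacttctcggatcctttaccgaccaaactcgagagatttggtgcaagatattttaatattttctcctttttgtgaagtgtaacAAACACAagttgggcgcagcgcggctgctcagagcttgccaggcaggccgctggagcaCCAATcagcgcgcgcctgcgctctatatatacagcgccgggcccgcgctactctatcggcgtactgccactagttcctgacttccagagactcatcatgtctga
Hist1h2ab promoter (chr13:23750838-23751137, plus strand): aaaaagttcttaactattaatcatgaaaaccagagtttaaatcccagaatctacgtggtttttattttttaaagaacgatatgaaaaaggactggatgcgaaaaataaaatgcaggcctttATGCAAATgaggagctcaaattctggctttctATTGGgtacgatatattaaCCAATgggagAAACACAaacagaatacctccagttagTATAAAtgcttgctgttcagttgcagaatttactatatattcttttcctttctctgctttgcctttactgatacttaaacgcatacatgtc

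The files held 1018 kept wild-type-labelled cells (24452538 UMIs) and 709 deficient-labelled cells (17898193 UMIs), with no cell barcode in common. UMIs, unique molecular identifiers, count captured molecules, and CPM, the usual scaled count, relates them to the total of a library or cell group. Nfatc1 itself was at 39.8 CPM with the wild-type label and 136 CPM with the deficient label, which goes against the genotype label. A 3′ count can lie outside the deleted part and does not check the deletion, so the libraries are named by their labels and every direction rests on those. CD8 T cell markers summed to 2122 and 2093 CPM, natural killer markers were at 0, and B cell markers summed to 20.1 and 28.3 CPM.

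Clustered histone genes made up 0.118% of UMIs in the wild-type-labelled library (28955 UMIs, 1184 CPM, 95% Poisson interval 1171 to 1198) and 0.0871% in the deficient-labelled library (15583 UMIs, 871 CPM, 857 to 884). Of the 67 genes, 47 averaged at least 1 CPM and are called measured, 15 had fewer UMIs, and 5 had none in either library. The 5 at zero were 2 H2A genes (Hist1h2aa and Hist2h2aa2), 2 H2B genes (Hist1h2ba and Hist1h2bq) and the H4 gene Hist1h4m, where a level of up to 0.123 and 0.168 CPM (3 UMIs) could have gone unseen. Of these, Hist2h2aa2, Hist1h2bq and Hist1h4m, have sequence in common with a near-identical copy (Hist2h2aa1, Hist1h2br and Hist1h4n), so a read may be assigned to neither. Most of the signal came from few genes: the 5 highest held 60.0% and 64.4% of the histone UMIs.

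Among H1 genes, Hist1h1b (the H1.5 linker histone) was highest, at 178 CPM in wild-type-labelled and 142 CPM in deficient-labelled cells. Hist1h1e (H1.4) followed at 128 and 102 CPM, and Hist1h1c (H1.2) at 43.6 and 28.1 CPM. Together 3 genes held 91.8% and 92.0% of H1 UMIs, and the testis histone gene Hist1h1t had 1 UMI in all. Hist1h1e overlaps Hist1h2be on the same strand in the annotation, so their counts are uncertain. Among core histones, the H4 gene Hist1h4d stood far above the rest of its type, at 182 and 138 CPM against 18.4 and 14.2 CPM for the next, Hist1h4h. The H2A genes were led by Hist1h2ap at 157 and 135 CPM, whose last 300 bases are also those of Hist1h2ao, then by Hist1h2ae at 65.1 and 43.1 CPM. The H3 genes were led by Hist1h3e (40.6 and 27.2 CPM, its end identical to that of Hist1h3f) and Hist1h3c (31.9 and 30.7 CPM). H2B was the weakest type, and its leading gene Hist1h2bj stood at 31.1 and 13.3 CPM. Molecules are counted at their 3′ end and not divided by length, so this is an order of captured UMIs and not of mRNA amounts.

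**Figure D1:**
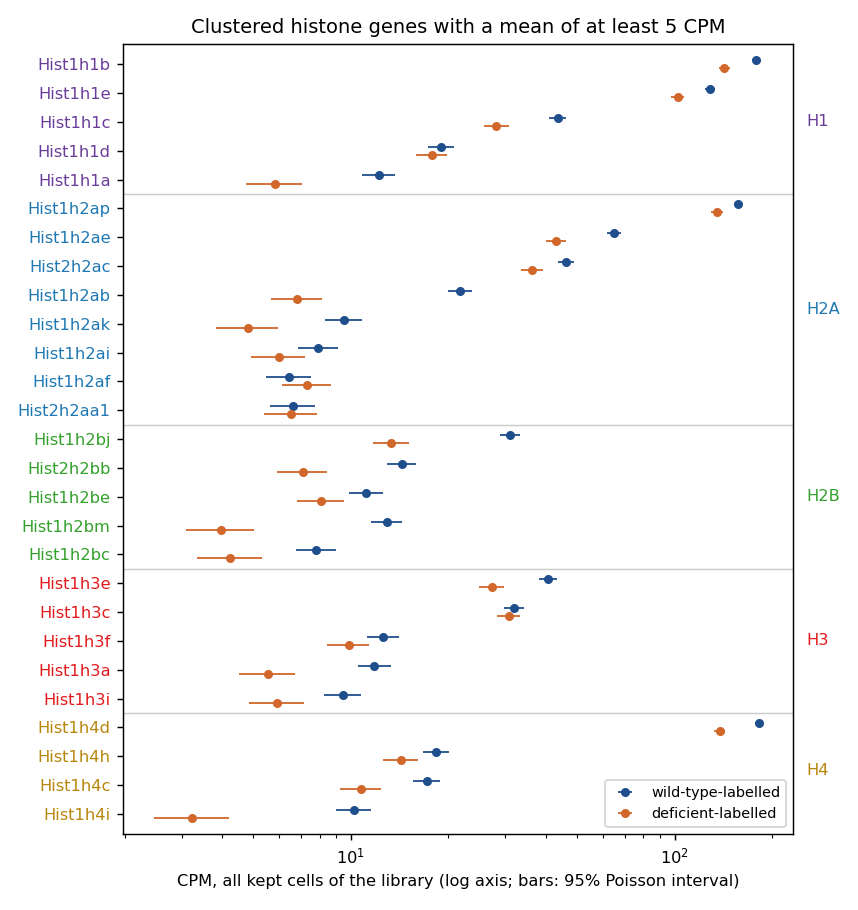
CPM (log axis) of the 27 clustered histone genes with a mean of at least 5 CPM, by type, in the wild-type-labelled (blue) and deficient-labelled (orange) library; bars are 95% Poisson intervals of counting error. Hist1h4d, Hist1h1b, Hist1h2ap and Hist1h1e lie above 100 CPM in both libraries, and H2B genes lie lower and further apart between the libraries.

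Histone UMIs were concentrated in the few cells with both Mki67 and Top2a, markers of dividing cells. For this, each cell was thinned at random to 5000 UMIs, which kept 1004 and 698 cells. Cells with a UMI of both genes were 45 (4.48%) of the wild-type-labelled and 19 (2.72%) of the deficient-labelled cells, and cells with neither were 862 and 631. The cells with both held 46.6% and 40.8% of the histone UMIs with 10.0% and 6.29% of all UMIs. Their summed histone level was 5496 and 5654 CPM, against 316 and 287 CPM in cells with neither, a ratio of 17.4 (95% counting interval 16.9 to 17.9) and 19.7 (19.0 to 20.5). They were also deeper, with medians of 45382 and 62391 UMIs against 20413 and 21227.

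All types were higher in the cells with both, to different degrees. The ratio was 29.8 and 28.8 for H2A, 21 and 28.2 for H1, 20.1 and 19.7 for H2B and 18.9 and 18.4 for H3. It was 7.49 and 7.58 for H4, the lowest in each library, where the level in cells with neither was 116 and 97.8 CPM. H4 took 36.8% and 34.1% of histone UMIs in cells with neither and 15.9% and 13.1% in cells with both. Of the 47 measured genes, 46 were at least 2-fold higher in cells with both in both libraries, a size that 8.96% of 11293 genes reached. The exception was the H2A gene Hist3h2a, with 18 and 23 UMIs in all and ratios of 2.83 and 0.70. The medians over the measured genes were 4.45 and 4.40 on the log2 scale, against 0.11 and 0.17 over all genes.

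**Figure D2:**
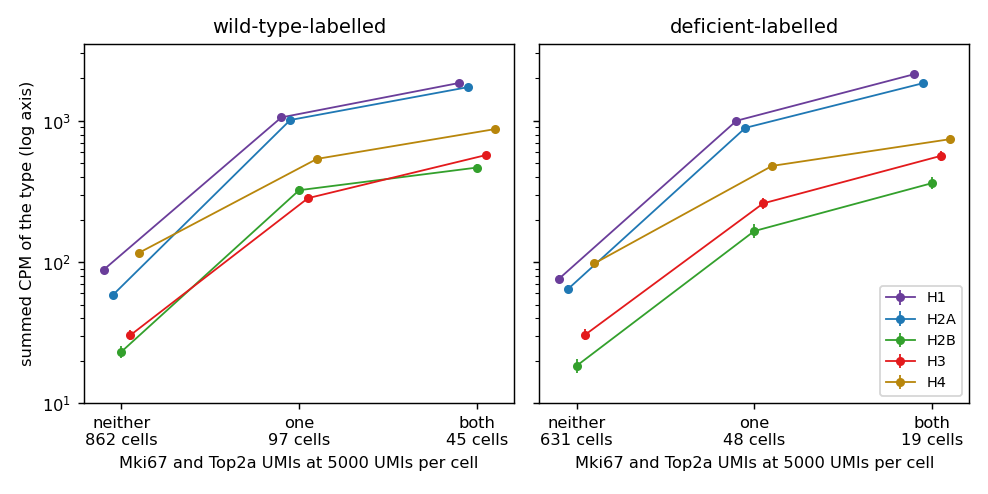
Summed CPM (log axis) of each histone type in cells with UMIs of neither, one or both of Mki67 and Top2a, for the wild-type-labelled (left) and deficient-labelled (right) library; bars, mostly hidden by the points, are 95% Poisson intervals. H4 is the highest type in cells with neither (116 and 97.8 CPM) and H1 the highest in cells with both (1853 and 2139 CPM).

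Replication state was also read from 43 S-phase genes, of which none is a histone gene. Per 5000 UMIs, cells with at most 2 UMIs of these genes formed the lowest group (376 and 265 cells) and cells with more than 5 the highest (206 and 139 cells). The groups are unequal because counts tie: 179 and 137 cells stood exactly at 2 UMIs and 179 and 124 at 3, while 107 and 63 stood at 5 and 47 and 43 at 6. Summed histone levels were 3165 and 2334 CPM in the highest group and 332 and 190 CPM in the lowest, a ratio of 9.53 (9.15 to 9.92) and 12.3 (11.6 to 13.0). By type the ratio was again highest for H2A (15 and 24.2) and lowest for H4 (4.50 and 4.74). At least 2-fold higher in both libraries were 44 of the 47 measured genes, against 6.96% of 11237 genes. The exceptions were Hist3h2a, Hist4h4 and Hist1h2bc.

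Replication genes without Mki67 and Top2a came with much less histone signal. In the highest replication group, cells with neither marker (135 and 102) had 456 and 626 CPM of histone UMIs, and cells with both (33 and 17) had 6017 and 5616 CPM. The ratio was 13.2 and 8.97. With phases called from the S-phase and G2/M lists, summed levels were highest in G2/M cells (77 and 32), at 4334 and 4010 CPM. S cells (284 and 193) stood at 1316 and 1241 CPM, and G1 cells (643 and 473) at 267 and 193 CPM. Over all thinned cells, histone UMIs correlated at 0.56 and 0.52 with G2/M genes and at 0.36 and 0.35 with S-phase genes. The G2/M list holds Mki67 and Top2a, so the phase calls and the G2/M correlation partly reuse the markers above. The lists also differ in summed level over all kept cells, at 2213 and 1880 CPM for G2/M and 1007 and 1016 CPM for S phase. The 2 correlations are therefore not on equal terms. Per cell, cells with both markers had a median of 25 and 19 histone UMIs per 5000, and 77.8% and 73.7% had at least 10. Of cells with neither, 0.928% and 1.43% reached 10. The tenth of cells with most histone UMIs held 73.2% and 70.8% of them, so any group mean rests on few cells.

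**Figure D3:**
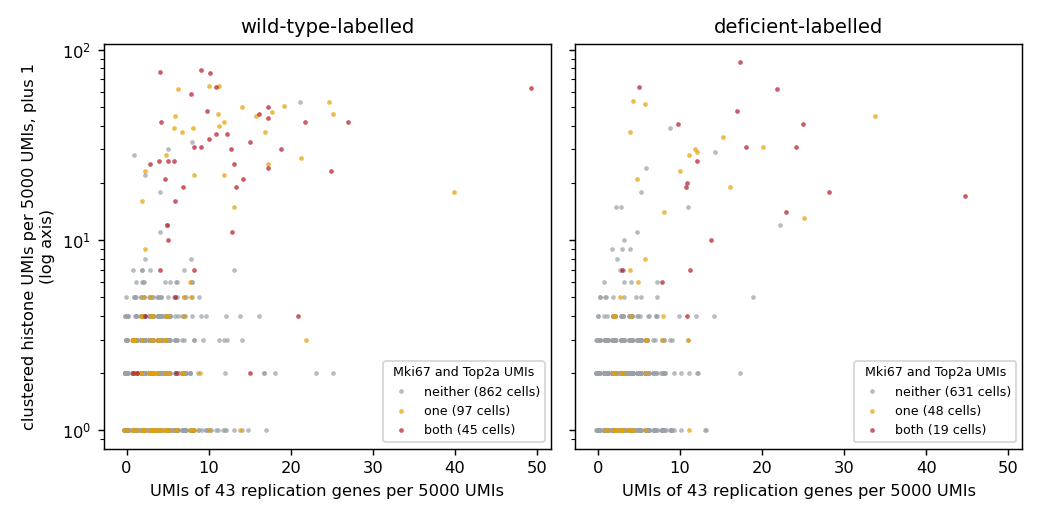
Each point is a cell thinned to 5000 UMIs (1004 wild-type-labelled left, 698 deficient-labelled right), with UMIs of 43 replication genes (x axis, spread slightly at random) and clustered histone UMIs plus 1 (y axis, log), coloured by Mki67 and Top2a. Cells with high histone counts mostly carry one or both markers, and some cells with more than 10 replication UMIs have almost no histone UMIs.

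The measured genes differed in their ratio of the highest to the lowest replication group. Among those averaging at least 5 CPM, ordered by the geometric mean of the libraries, Hist2h2bb had the largest ratio of highest to lowest group, 19.9 and 124, but the latter rests on 1 UMI in the lowest group. Hist1h1b followed with 25.9 and 44.9 (174 and 60 UMIs there), then Hist1h2bm with 23.5 and 39.9 (14 and 2 UMIs). The smallest ratios were those of Hist1h2bc (1.37 and 1.74), Hist1h4i (4.54 and 2.28) and Hist1h4h (4.10 and 3.58). Hist1h2bc encodes an H2B whose annotated transcript is spliced (2 exons), holds no stem-loop and carries a poly(A) signal.

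Outside S phase, taken as cells of the lowest replication group with neither Mki67 nor Top2a (349 and 254 cells), histone UMIs stood at 286 and 192 CPM. H4 gave 37.4% and 40.0% of these and H1 26.4% and 23.6%. The markers were absent after thinning only. In the full counts these cells held 66 and 39 Top2a UMIs and 18 and 9 Mki67 UMIs, so dividing cells may remain among them. The tenth of these cells with most histone UMIs held 40.5% and 38.4% of them after thinning. Hist1h4d alone was at 75.4 and 58.8 CPM, followed by Hist1h1e at 36.4 and 21.9 and Hist1h1c at 21.2 and 10.7. Next were Hist1h2ap at 17 and 9.06 CPM and Hist1h3e at 13.7 and 11.4 CPM. Between the libraries in these cells, 14 of 40 measured genes (the rest had at most 3 UMIs there in each library) were at least 2-fold higher with the wild-type label (7.7% of genes tested) and 3 with the deficient label (4.69%). These library differences rest on the random thinning that picks the cells. With another random thinning, added after seeing the data, the summed level was 247 and 230 CPM, a ratio of 1.08 in place of 1.49, and Hist1h4d was at 73.0 and 73.7 CPM. There 8 of 38 genes were at least 2-fold higher with the wild-type label and 3 with the deficient label. The first 3 and Hist1h3e have annotated transcripts that go on at least 369 bases past the stem-loop. Over all thinned cells, 35.4% and 29.4% had a Hist1h4d UMI, and 65.1% and 60.3% a UMI of any clustered histone gene. No cell class that lacks histone mRNA was at hand to measure the share given by free RNA. The 131 and 45 barcodes that failed the filter held histone UMIs at 367 and 394 CPM (313 to 428 and 301 to 507), and the part of free RNA in the levels outside S phase was not tested.

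**Figure D4:**
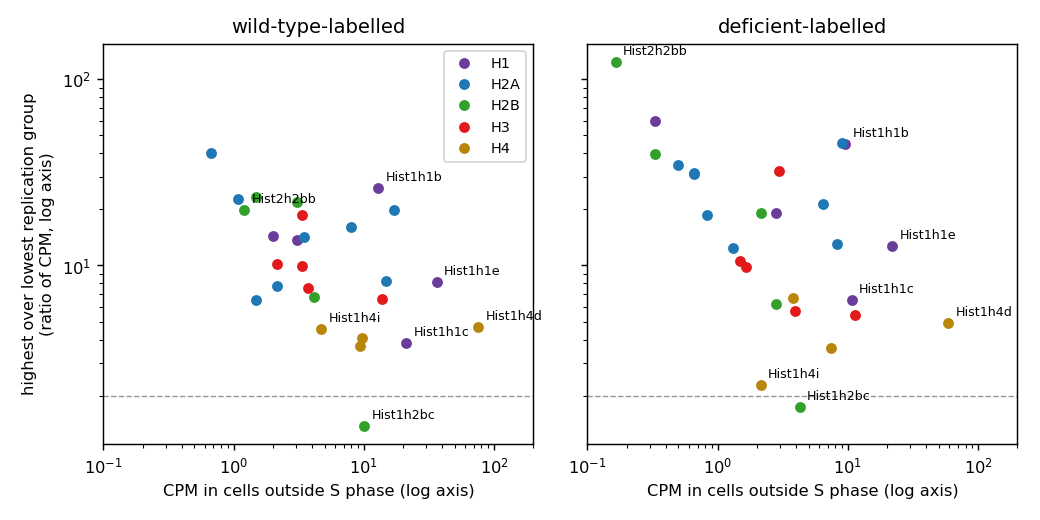
For the 27 clustered histone genes with a mean of at least 5 CPM, the level in cells outside S phase (x axis, CPM, log) and the ratio of the highest to the lowest replication group (y axis, log; dashed line at 2), wild-type-labelled left and deficient-labelled right, coloured by type. H4 genes and Hist1h2bc lie at the lower edge, while both axes use cells of the lowest group and so are not independent.

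Ratios were also set beside the annotated transcript ends, as a description. For the 12 measured genes with a poly(A) signal after the stem-loop, the median ratio of highest to lowest replication group was 4.61 and 5.97. It was 10.8 and 12.9 for 20 genes with a stem-loop and no such signal after it, and 15.6 and 19.9 for 15 genes with no stem-loop in the annotated transcript. Some of these 15 have short annotated transcripts, such as Hist1h2ai (393 bases) and Hist1h1b (743), and some longer ones, such as Hist1h2bc (1156). A stem-loop beyond the annotated end would be missed, so this group is one of annotation and not of known mRNA ends. The 12 genes include 5 of the H4 type. Without H4 genes the medians were 11.3 and 8.86 for 7 genes with the signal, 12.3 and 13.1 for 17 with a stem-loop and no signal, and 17.8 and 25.6 for 14 with no stem-loop. Among H4 genes they were 4.10 and 3.58 for 5 with the signal and 4.35 and 6.70 for 3 without it. In both libraries the medians with and without the signal lay closer together within H4 genes and within the other types than over all genes.

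Between the libraries, the summed histone level was 1.36-fold higher in the wild-type-labelled one (95% counting interval 1.33 to 1.39). H2B differed most, at 104 against 54.5 CPM, a ratio of 1.90 (1.77 to 2.05), while H1 (381 against 296 CPM), H2A (340 against 257), H3 (115 against 86.8) and H4 (244 against 176) had ratios of 1.29 to 1.39. Of the 47 measured genes 42 were higher in the wild-type-labelled library, with a median of 0.60 on the log2 scale against 0.005 over all genes. At least 2-fold higher there were 14 genes (4.86% of all genes tested reached this), of which 6 were H2B, 3 H2A, 3 H4, 1 H1 and 1 H3. At least 2-fold higher in the deficient-labelled library was 1 gene (3.18% of all genes), Hist1h2bl, at 0.859 against 3.13 CPM.

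Examples of genes that differed by over 2-fold come from the H2B, H2A and H4 types. Hist1h2bj was at 31.1 against 13.3 CPM, a ratio of 2.34 (2.02 to 2.72), and Hist1h2bm at 12.9 against 3.97 CPM, a ratio of 3.25 (2.5 to 4.26). Hist2h2bb was at 14.4 against 7.10 CPM. The H2A gene Hist1h2ab, whose promoter is shown above, was at 21.7 against 6.82 CPM (3.19, 2.61 to 3.91), and the H4 gene Hist1h4i at 10.2 against 3.24 CPM (3.15, 2.36 to 4.27). Except in Hist1h4i, stretches within the last 300 bases of these genes also occur in other genes, so some of their reads may be uncounted. In 12 places an H2A and an H2B gene start head to head, 176 to 306 bases apart. Of the 7 pairs with both genes measured, the H2A gene had the higher ratio in 5 and the H2B gene in 2. One of the latter, named after its values were seen, is Hist1h2ag (1.25) with Hist1h2bj (2.34). The 10 measured genes with an octamer had a median ratio of 2.24, against 1.51 for all 47. They are 5 H2A and 5 H2B genes and are themselves among the 47. They were not compared with H2A and H2B genes without an octamer, so a link to the octamer was not tested.

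Cell state markers also differed between the libraries. Cells with both markers were 4.48% (3.29 to 5.95) of the wild-type-labelled and 2.72% (1.65 to 4.22) of the deficient-labelled cells, with overlapping intervals. Another random thinning, chosen after seeing the data, gave 37 of 1004 and 21 of 698 cells, so the size of this gap depends on the thinning. Over all kept cells, Top2a was at 88.8 against 57.4 CPM and G2/M genes at 2213 against 1880 CPM. S-phase genes summed to 1007 and 1016 CPM and Mki67 to 37.4 and 34.3 CPM. Within cells with both markers the histone ratio was 0.97 (0.943 to 1.002), and within cells with neither 1.10 (1.06 to 1.15). These values turn on which cells a random thinning puts in a state. With the other random thinning they were 1.28 and 1.57. H2B had the highest ratio of the 5 types in both states under both thinnings, 1.29 and 1.26 in the first and 1.73 and 2.13 in the second. The part of the cell states in the library difference was not tested further, and over all cells of a library, fewer histone-rich cells and less histone mRNA per cell cannot be told apart.

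**Figure D5:**
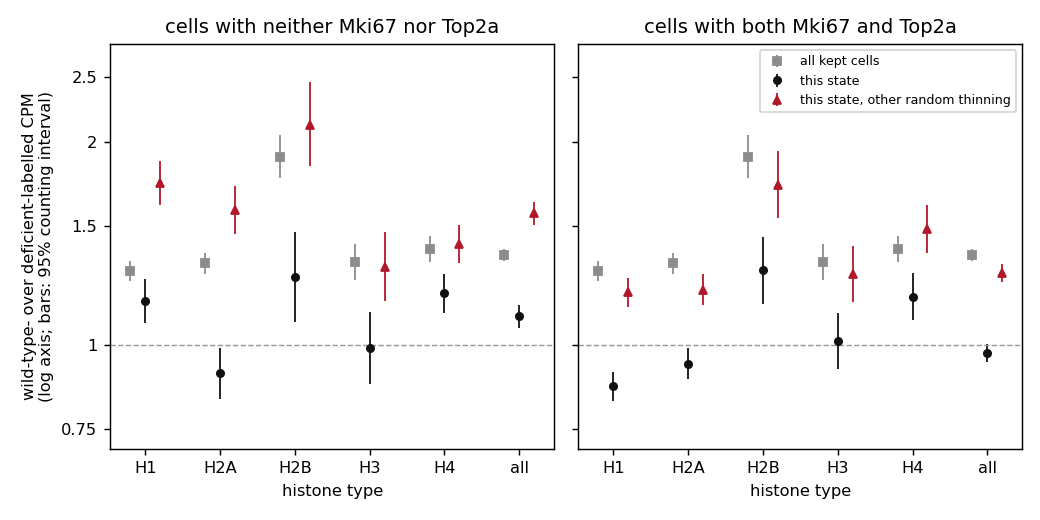
Ratio of CPM, wild-type-labelled over deficient-labelled (log axis, dashed line at 1), for each histone type and all clustered histone genes, in all kept cells (grey squares), and within cells with neither (left) or both (right) of Mki67 and Top2a under 2 random thinnings (black circles, red triangles); bars are 95% counting intervals. H2B is highest in each series, and the red and black series lie further apart than their intervals.

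In single cells, the genes most like the summed clustered histones were Hmgb2 (mean Pearson r 0.64 over the 2 libraries), Stmn1 (0.60) and Pclaf (0.60), then Mki67, Top2a, Ube2c, Cdk1, Birc5, Tubb5 and Smc2, out of 5309 genes of at least 20 CPM. For Hist1h4d, itself one of the summed genes, the first 8 were the same genes in the same order, starting with Hmgb2 at 0.47, followed by Cks1b and H2afz. These correlations run across thinned cells that share library and depth, and are descriptive. Histone types correlated with each other at 0.36 to 0.77, most for H1 with H2A (0.77 and 0.71) and least for H2B with H4 (0.55 and 0.36).

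Histone genes outside the clusters, most of which make polyadenylated mRNA for replacement variants, were as a list less raised in the highest replication group. Of 11 such genes 9 were measured, and 5 were at least 2-fold higher in the highest replication group in both libraries. The centromere histone gene Cenpa had the largest ratios among these, 4.79 and 8.46. H2afz (537 and 469 CPM) stood at 2.69 and 3.30, H2afv at 2.10 and 3.08, H2afx at 2.48 and 4.41, and H1f0 at 2.62 and 4.21. The H3.3 genes H3f3a (707 and 750 CPM) and H3f3b (1064 and 1390 CPM) had ratios of 1.09 and 1.10, and 1.19 and 1.32. H2afj was the only measured one below 1 in each library, at 0.87 and 0.86, and H2afy stood at 1.29 and 1.24. Between the libraries H1f0, the linker histone of resting cells, was at 10.6 against 4.08 CPM, the 1 gene of this list at least 2-fold apart. H1fx had 34 against 1 UMI and H2afy2 had 2 UMIs.

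Factors that make, cut and carry histones differed less between the libraries. None of 16 measured genes for histone mRNA processing and none of 17 for histone chaperones was 2-fold apart, and none of 43 S-phase genes, while 1 of 54 G2/M genes was (Ube2c, 103 against 50.3 CPM). Over all genes tested, 4.86% were 2-fold higher with the wild-type label and 3.18% with the deficient label, so short lists would hold few. Higher with the wild-type label were 6 of 16, 8 of 17, 24 of 43 and 48 of 54 genes, in that order. Their medians were -0.04, -0.02, 0.06 and 0.44 on the log2 scale, against 0.60 for the measured clustered genes. In the processing list Lsm10 (26.3 against 20.1 CPM) and Upf1 (38.4 against 31.4) had the highest ratios, and Npat, the histone gene coactivator, (26.3 against 31.9) and Eri1 (40.2 against 49.1), a nuclease acting on the stem-loop, the lowest. Slbp, the stem-loop binding protein, named here for its role after its values were seen, was at 41.8 and 36.9 CPM and had replication ratios of 3.39 and 3.20. Slbp belongs to the 43 S-phase genes that set the replication groups, so these ratios are partly fixed by the grouping. Among chaperones Daxx (15.5 against 12.5 CPM) and Chaf1b (6.87 against 5.64) were at one end, and Nasp (109 against 132) and Asf1a (37.9 against 45.9) at the other. In the S-phase list, Mcm2 (10.1 against 7.15 CPM) and Wdr76 (11.1 against 7.99) stood at one end, and Ccne2 (9.08 against 17.5) and Brip1 (6.01 against 9.61) at the other. In the G2/M list the lowest ratios were those of Cdca2 (6.79 against 7.93 CPM) and Ctcf (73.3 against 83.2), and Tpx2 (20.6 against 12.2) was second to Ube2c.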

How the data were processed

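The values are raw UMI counts per gene and barcode, which per the file headers came from Cell Ranger 7.0.0, from the 10x 3′ kit version 3.1 and aligned to mm10 per the labels and the submitters' processing notes. The annotation the authors used, and whether intronic reads were counted, were not found in the labels or headers. Deposited matrices held 1149 and 754 barcodes, and 12 multiplexing tags (3.83% and 4.20% of counts) were left out. Cells needed 500 or more genes and no more than 10% mitochondrial UMIs, which 1018 and 709 met.

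UMIs were summed over cells and divided by the total to give CPM, where 1 UMI is 0.0409 and 0.0559 CPM. Folds are ratios of CPM without a pseudocount, with a zero put at 3 UMIs, and genes averaging at least 1 CPM over both libraries were called at 2-fold. Intervals are 95% (exact Poisson, conditional binomial for ratios, Clopper-Pearson for shares) and cover counting error only, not the spread between cells or mice. Cell states were read after thinning each cell to 5000 UMIs, which left out 14 and 11 shallower cells. Scrublet in scanpy 1.11.5 called 5 and 6 doublets, which were kept and left out in an alternative. Alternatives included edgeR 4.0.16 TMM scaling (R 4.3.3). Python 3.11.15, NumPy 2.4.6, SciPy 1.17.1, pandas 2.3.3 and matplotlib 3.10.9 were used.

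Genes named are members averaging at least 5 CPM (at most 6 per type), the 3 largest and 3 smallest replication ratios among them, the 5 highest outside S phase, members at zero, Mki67, Top2a, Nfatc1, the histone genes outside the clusters, the 2 highest and 2 lowest library ratios of each other list at a mean of at least 5 CPM, and the 10 genes most like the summed members or Hist1h4d. Members outside that rule are named as exceptions or examples, after their values were seen. Members and lists were chosen with earlier results of these data known. Sequences come from GENCODE M21 transcripts and RefSeq promoters (GRCm38.p6), matched for 67 and 62 of 67 genes. Tested on simulated Poisson counts for the library comparison, over 11331 genes, the rule called 0 of 50 genes changed 1.5-fold and 49 of 50 changed 2.5-fold. It called every gene changed 3- or 4-fold, and 0.144% of unchanged genes. The simulated counts held no spread between cells or mice, so these shares are not error rates for the data.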

Additional observations from a re-analysis of the deposited data

Results flagged for a closer look

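The H1 results ran in opposite directions in different cell states. Summed H1 was lower in the wild-type-labelled library in cells with both Mki67 and Top2a (ratio 0.867) and higher in cells with neither (1.16). Its gene Hist1h1e had ratios of 0.775 and 1.15 in these states. The difference between the states was not tested, since each library is 1 sample. With another random thinning the H1 ratios were 1.20 and 1.74 and those of Hist1h1e 1.09 and 1.67, so the opposite directions were not seen there.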

How the results depend on the processing

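No paired analysis was possible because each group has 1 library. Of 205 recomputed values, 87 stayed within the counting interval of the first value (for counts, within 1.5 times), 103 moved beyond it and 15 changed direction. A change of direction was counted only where the first interval left out 1, and any other is among the 87 or the 103. TMM and median ratio scaling, the looser barcode filter and leaving out doublets left each library ratio and count in that range. With a filter of 1000 genes and 5% mitochondrial UMIs the summed ratio was 1.40. From thinned cells H2A was 1.44 and H3 1.24, and 0 genes were 2-fold higher in the deficient-labelled library. As means over cells, the summed ratio was 1.43, H1 1.34, H2A 1.39, H3 1.42 and H4 1.47, with 0 genes 2-fold higher in the deficient-labelled library. In cells with neither marker the summed ratio was 1.10, H1 1.16, H2A 0.907, H2B 1.26, H3 0.988 and H4 1.19, with 6 and 0 genes 2-fold apart in the 2 directions among those averaging 1 CPM in these cells, and 10 and 6 of the 47 averaging 1 CPM over all cells. In cells with both it was 0.972, with H1 0.867, H2A 0.937, H2B 1.29, H3 1.012 and H4 1.18, with 5 and 2 genes, and 4 and 1 of the 47. In the lowest replication group, added after seeing the data, it was 1.75, with H1 2.06, H2A 2.10, H2B 2.15 and H4 1.49. A mean of at least 5 CPM left 7 and 0 genes, and a pseudocount of 1 CPM left 8 higher in the wild-type-labelled library.

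The ratio of cells with both markers to cells with neither was 18.8 and 23.9 with states from counts not thinned, 21.6 and 21.5 with at least 2 UMIs of each, 11 and 16 at 3000 UMIs, 20.1 and 23.3 as means over cells, and 15.1 and 18.5 with another random thinning. The ratio of the highest to the lowest replication group was 4.93 and 6.44 for called S against G1 phases, 10.2 and 11.4 at 3000 UMIs, 7.29 and 8.05 as means over cells, and 10.8 and 9.72 with another random thinning, which turns the order of the libraries. Counts of genes 2-fold higher in either contrast moved between 38 and 46. Within states, the other thinning turned H1 to 1.20 and H2A to 1.21 in cells with both, Hist1h1e to 1.09 there, H2A to 1.59 in cells with neither, and H1, H3 and Hist1h1e to 0.994, 0.962 and 0.930 in the lowest replication group. Thinning to 3000 UMIs turned H1 to 1.11 and H2A to 1.005 with both and H2A to 1.97 with neither. In cells outside S phase the summed ratio was 1.08 with the other thinning and 1.16 at 3000 UMIs, against 1.49, and H3 was 0.918 against 1.14 with the other thinning. The cause was not tested. Few cells carry most histone UMIs, so counting intervals are narrower than the spread between cells.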
